A study of Mus musculus with 12 samples.

Results

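The 9 genes described here are the pigment and melanosome genes Tyr, Tyrp1, Dct, Pmel, Mlana, Oca2, Slc45a2, Mitf and Mc1r, taken by symbol from a list of melanocyte genes. All 9 have a row among the 24062 gene symbols counted, and all 9 passed the filter on low counts that left 16267 genes for testing. The libraries come from wounds of the back skin of C57BL/6 mice made diabetic with streptozotocin, a toxin of the insulin-producing beta cells, and each of the 12 libraries is from 1 mouse. The treatment label forms 4 groups of 3 libraries: blank, DSCG, post-MCS-01 and pre-MCS-01. MCS-01 is a mast cell stabilizer known here by its code name, and the name DSCG is commonly short for disodium cromoglycate, an older drug of the same kind. What "pre" and "post" refer to is not defined in the labels, which also give no dose, time, age, sex, wound day or batch. The mice of every group, blank included, carry the strain and the diabetes. Replicate numbers 1 to 3 below only name the libraries of a group.

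Pigment in mouse skin is made by melanocytes in melanosomes, organelles related to lysosomes, and passed to keratinocytes. In the back skin of the mouse most pigment cells sit in the hair follicles, where pigment is made while the follicle grows a hair shaft and not while it rests. MC1R, the receptor for melanocyte-stimulating hormone, acts through cyclic AMP to raise the transcription factor MITF, which binds the promoters of Tyr, Tyrp1, Dct, Pmel, Mlana and other melanosome genes. Tyrosinase (Tyr) carries out the rate-limiting oxidation of tyrosine, DCT (dopachrome tautomerase) and TYRP1 act on later intermediates of black eumelanin, PMEL forms the fibrils on which pigment is laid down, and OCA2 and SLC45A2 are melanosomal transport proteins that affect the organelle's pH.

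Because MITF is known to bind the E-box CATGTG in several of these genes, the promoters of the 3 enzymes and of Oca2, the member that varied most between libraries, are printed below with each CATGTG, or CACATG where it lies on the other strand, in capitals. The RefSeq promoter table (GRCm38.p6) held 6 of the 9 members, namely Tyr, Tyrp1, Dct, Oca2, Mc1r and Mitf, and not Pmel, Mlana or Slc45a2. Each window is the 250 bases before the transcription start, written 5′ to 3′ on the gene's own strand. The windows are chr7:87493513-87493762 (minus strand) for Tyr, chr4:80833963-80834212 (plus strand) for Tyrp1, chr14:118052247-118052496 (minus strand) for Dct and chr7:56239509-56239758 (plus strand) for Oca2.
Tyr: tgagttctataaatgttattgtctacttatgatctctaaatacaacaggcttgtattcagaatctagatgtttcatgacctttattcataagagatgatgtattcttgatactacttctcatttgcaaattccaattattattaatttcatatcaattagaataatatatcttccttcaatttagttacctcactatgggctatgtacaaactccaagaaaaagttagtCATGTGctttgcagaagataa
Tyrp1: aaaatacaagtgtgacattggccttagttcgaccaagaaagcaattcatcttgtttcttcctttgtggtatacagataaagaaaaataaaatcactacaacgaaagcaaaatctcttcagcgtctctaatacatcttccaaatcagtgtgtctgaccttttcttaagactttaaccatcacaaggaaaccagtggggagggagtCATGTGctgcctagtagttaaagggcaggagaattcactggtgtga
Dct: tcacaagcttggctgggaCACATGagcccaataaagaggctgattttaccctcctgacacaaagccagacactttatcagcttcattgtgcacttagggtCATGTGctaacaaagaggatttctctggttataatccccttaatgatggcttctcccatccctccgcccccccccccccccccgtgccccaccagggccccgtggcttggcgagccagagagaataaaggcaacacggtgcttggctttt
Oca2: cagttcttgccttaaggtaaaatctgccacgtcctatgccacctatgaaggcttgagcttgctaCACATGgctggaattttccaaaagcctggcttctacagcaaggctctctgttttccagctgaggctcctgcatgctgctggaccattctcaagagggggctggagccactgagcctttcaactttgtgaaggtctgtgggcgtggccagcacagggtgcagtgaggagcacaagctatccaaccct
The motif begins 21 bases before the start in Tyr, 46 bases before it in Tyrp1, 186 bases before it in Oca2, and 232 and 150 bases before it in Dct. The Mc1r window (chr8:123406832-123407081, plus strand) held 2 copies, at 62 and 51 bases, and the windows of the 3 Mitf starts in the table held none. Over both strands, CATGTG occurred in 12.3% of the 32851 promoters of the table, and CACGTG, the other E-box searched, in 6.02%. CACGTG was in none of the members' windows. These matches describe the letters only, since no binding was measured.

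Total gene counts were 37702643 to 50461867 in 11 libraries and 3835042 in blank replicate 3. A count of 3 is therefore worth 0.786 CPM (counts scaled to library size with TMM factors) in blank replicate 3 and 0.0588 to 0.0852 CPM in the others, which sets how finely low members were measured. Long transcripts lay low as a whole in blank replicate 3, DSCG replicate 2 and pre-MCS-01 replicate 2. The rank correlation across genes of a gene's log2 CPM, centred on its own mean, with its exon length was -0.32, -0.33 and -0.39 in those 3, against -0.06 to 0.34 in the other 9. Genes are not independent replicates, so this value describes the libraries only. The members' median differences are given with and without these libraries, and other results with them unless stated.

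All 9 members were detected in all 12 libraries. On the mean level per kilobase of exon over the libraries (CPM per kb), Pmel stood first at 22.1, followed by Mlana at 16.3, Dct at 14.0 and Tyrp1 at 11.1. Below these came Mitf at 2.98, Tyr at 1.34, Mc1r at 1.24, Slc45a2 at 1.12 and Oca2 at 0.931. Every pair of neighbours in this order overlapped over the libraries, whose spread ran from 1.52 to 96.7 CPM per kb for Pmel and from 1.67 to 4.49 for Mitf. Tyr, the enzyme that limits melanin synthesis, lay below the fibril protein and the later enzyme Dct in each library. The ratio of Pmel to Tyr per length was 12.8 to 20.4 in all 12 libraries, and that of Dct to Tyr 7.06 to 14.9. The order of members and the size of these ratios depend on the exon lengths used, and the annotation behind the counts is not given. In counts without length scaling, Pmel and Dct also exceeded Tyr in each library.

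The 3 enzymes had one order of libraries at the extremes. Tyr stood at 9.30, 37.2 and 14.5 CPM in pre-MCS-01 replicates 1 to 3, at 1.54, 0.840 and 2.18 in post-MCS-01, at 4.18, 6.44 and 19.9 in DSCG, and at 11.3, 2.54 and 4.45 in blank. Its 3 post-MCS-01 values lay below all other 9, and pre-MCS-01 replicate 2 was the highest. Tyrp1 stood at 28.8, 110 and 54.9 CPM in pre-MCS-01, at 5.09, 1.34 and 6.75 in post-MCS-01, at 16.8, 8.02 and 84.0 in DSCG, and at 40.4, 11.8 and 10.5 in blank. Dct stood at 64.4, 382 and 107 CPM in pre-MCS-01, at 18.8, 4.92 and 23.5 in post-MCS-01, at 39.0, 59.9 and 149 in DSCG, and at 79.1, 31.3 and 32.8 in blank. For both later enzymes, too, the post-MCS-01 libraries lay below every other library, while pre-MCS-01, DSCG and blank overlapped. DSCG replicate 2 stood apart in the balance of these 2: its Tyrp1 to Dct ratio per length was 0.279, against 0.564 to 1.17 in the other 11.

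The structural members followed the enzymes to different extents. Pmel stood at 42.8, 222 and 80.4 CPM in pre-MCS-01, at 9.98, 3.48 and 12.6 in post-MCS-01, at 24.3, 30.5 and 92.0 in DSCG, and at 50.0, 16.7 and 24.4 in blank. All 3 post-MCS-01 values lay below the lowest of the other 9. Reads of Pmel are nearly its own: 34 of its exon bases (1.48%) are shared with Cdk2 and 105 (4.58%) with Dgka, both on the opposite strand, and no strand setting of the counting is stated. Mlana, which encodes a melanosomal protein (MART-1) needed for PMEL maturation, stood at 12.2, 81.0 and 16.5 CPM in pre-MCS-01, at 7.91, 2.11 and 7.60 in post-MCS-01, at 7.78, 14.4 and 25.9 in DSCG, and at 13.3, 8.17 and 9.96 in blank. Here post-MCS-01 replicate 1 lay above DSCG replicate 1, and pre-MCS-01 replicate 2 was far above every other library.

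The transporters were the 2 lowest members per kilobase. Oca2 stood at 3.73, 13.1 and 7.96 CPM in pre-MCS-01, at 0.0756, 0.0720 and 0.230 in post-MCS-01, at 2.05, 0.923 and 10.6 in DSCG, and at 4.43, 0.374 and 0.786 in blank. The post-MCS-01 values are 3, 3 and 10 counts, and that of blank replicate 3 is also 3 counts, so these 4 lie near the limit that depth sets. Slc45a2 stood at 3.43, 13.6 and 6.35 CPM in pre-MCS-01, at 0.403, 0.216 and 0.528 in post-MCS-01, at 1.70, 1.25 and 7.60 in DSCG, and at 3.41, 0.769 and 0.786 in blank. Slc45a2 in blank replicate 3 is also 3 counts, so its distance from post-MCS-01 there is coarsely measured. Both transporters had all 3 post-MCS-01 libraries below all others. Of the 9 members Oca2 had the largest standard deviation of log2 CPM over the 12 libraries, 2.42.

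Mitf and Mc1r, the regulator and the receptor, parted. Mc1r stood at 4.40, 20.4 and 5.64 CPM in pre-MCS-01, at 0.932, 0.192 and 1.08 in post-MCS-01, at 2.41, 2.72 and 7.83 in DSCG, and at 3.92, 1.10 and 3.67 in blank, again with post-MCS-01 lowest. Of its exon bases, 653 (17.9%) overlap the opposite-strand locus Gm38092. Mitf stood at 13.6, 23.5 and 19.3 CPM in pre-MCS-01, at 14.9, 10.3 and 13.9 in post-MCS-01, at 12.9, 22.8 and 27.8 in DSCG, and at 23.5, 23.3 and 15.7 in blank. Of its post-MCS-01 values, those of replicates 1 and 3 lay within the ranges of pre-MCS-01 and DSCG, and all 3 lay below blank. Its highest library exceeded its lowest by 2.70-fold. The standard deviation of Mitf, 0.449 on the log2 scale, was at the 54.0th percentile of all genes tested, and those of the other 8 members were at the 95.7th to the 99.0th. The counts do not separate the transcripts of Mitf, and the gene is known to be active in mast cells, macrophages and other cells besides melanocytes.

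**Figure D1:**
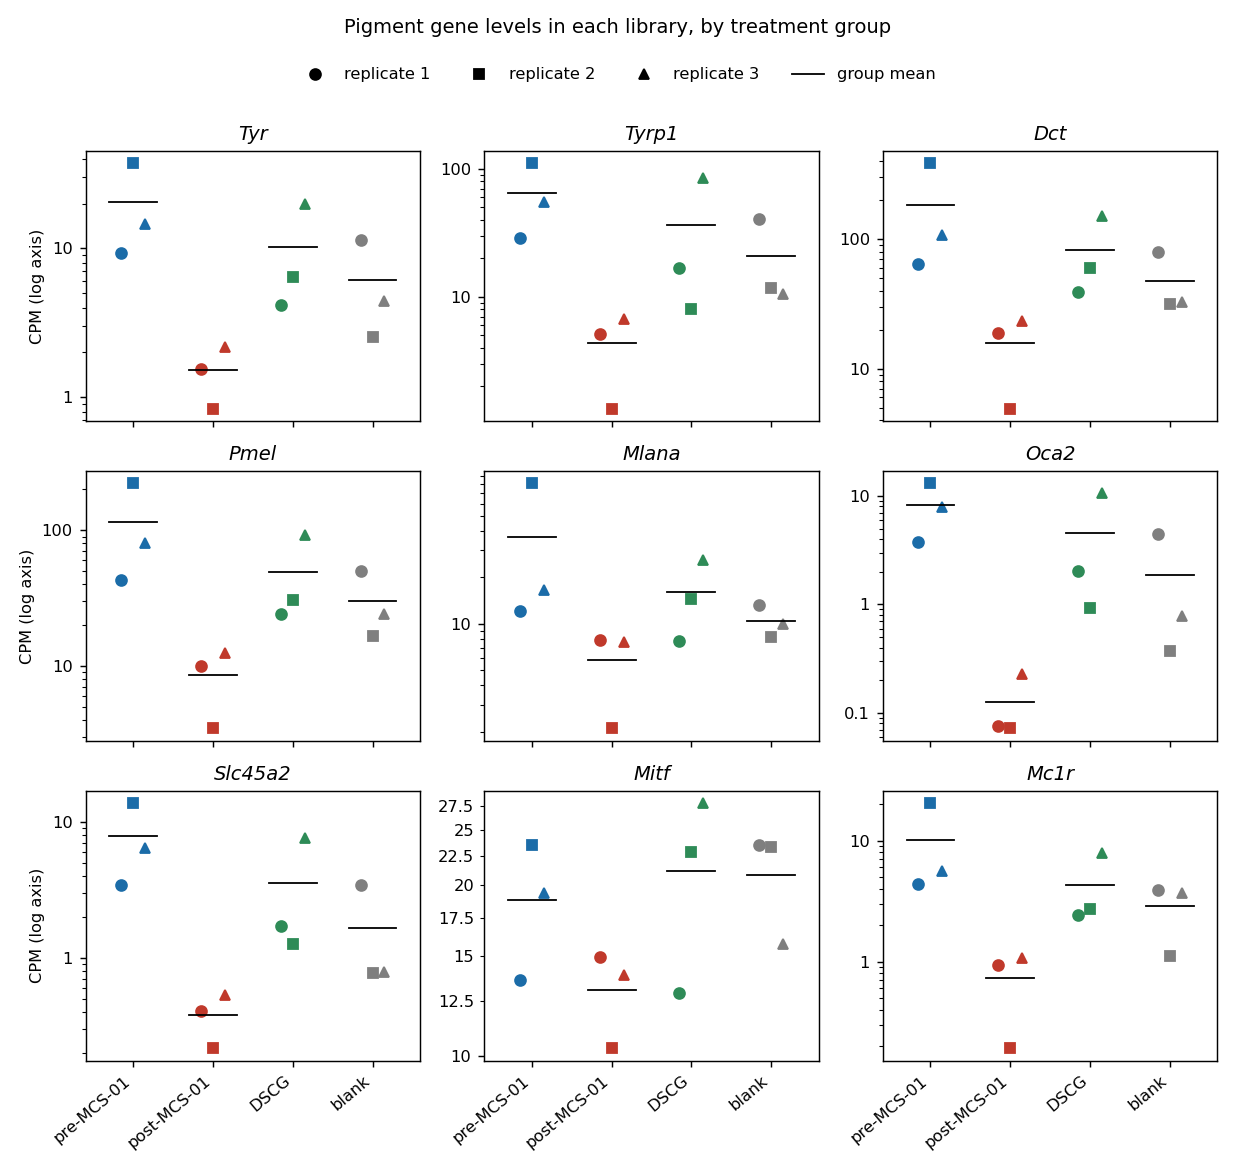
Level of each of the 9 genes in each library, in CPM on a log axis, by treatment group. Points are libraries, marked by replicate, and the line is the group mean. The post-MCS-01 libraries are the lowest 3 of 12 for 7 of the 9 genes, the exceptions being Mlana and Mitf.

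For Pmel, Oca2, Tyr, Tyrp1, Dct, Slc45a2 and Mc1r, 7 of the 9 members, the 3 post-MCS-01 libraries lay below all other 9, which was so for 536 of all 16267 genes tested (3.3%). The margin of Mc1r was small, at 1.08 CPM in post-MCS-01 replicate 3 against 1.10 in blank replicate 2. Every member had its lowest value in post-MCS-01 replicate 2, and every member but Mitf had its highest in pre-MCS-01 replicate 2, one of the libraries low in long transcripts. Mitf was highest in DSCG replicate 3. In whole tissue, fewer melanocytes and less RNA per melanocyte cannot be told apart. Summed over the members, the level was 183 to 903 CPM in pre-MCS-01, 111 to 425 in DSCG, 96.0 to 229 in blank and 23.5 to 68.3 in post-MCS-01.

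Members were then compared between groups with edgeR's quasi-likelihood test over all genes, at an adjusted p under 0.05. In pre-MCS-01 against post-MCS-01 the mean level of Pmel was 115 ± 94.3 CPM (SD, n = 3) against 8.67 ± 4.68, a log2 difference of 3.73 ± 0.78 (SE, adjusted p = 0.0545). Oca2 differed by 5.99 ± 1.23 (adjusted p = 0.0528), Slc45a2 by 4.34 ± 0.90 (adjusted p = 0.0534), Tyr by 3.74 ± 0.79 (adjusted p = 0.0593) and Mc1r by 3.78 ± 0.84 (adjusted p = 0.0739). Dct differed by 3.55 ± 0.82 (adjusted p = 0.0903), Tyrp1 by 3.87 ± 0.97 (adjusted p = 0.126) and Mlana by 2.64 ± 0.75 (adjusted p = 0.198). Mitf had 18.8 ± 4.94 against 13.0 ± 2.42 CPM, a log2 difference of 0.53 ± 0.31 (adjusted p = 0.600).

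None of the 9 thus passed the adjusted threshold, where 0.824% of all genes did. At an unadjusted p under 0.05, 8 of 9 members were higher in pre-MCS-01, against 6.02% of all genes, and the groups did not overlap for the same 8 (Mitf excepted), against 10.7%. The members' median log2 difference was 3.74, and that of all genes tested was 0.03. Other tools gave other counts: DESeq2 called 8 members (2.45% of all genes), limma-voom called 0 (0.00615%), and limma-voom with library quality weights called 7 (23.5%). Without the 3 libraries low in long transcripts all 9 differences stayed above 0, with a median of 2.80, and without pre-MCS-01 replicate 2 alone the median was 2.83. Without pre-MCS-01 replicate 1, edgeR called Pmel and Slc45a2.

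The next 2 comparisons use the same 3 post-MCS-01 libraries, so they are not independent of the first or of each other. Against DSCG, the post-MCS-01 level of Oca2 was 0.126 ± 0.0899 CPM against 4.51 ± 5.27, a log2 difference of -5.12 ± 1.20 (adjusted p = 0.0822). Slc45a2 differed by -3.19 ± 0.86 (adjusted p = 0.137), Tyr by -2.74 ± 0.76 (adjusted p = 0.151), Mlana by -1.45 ± 0.72 (adjusted p = 0.485) and Mitf by -0.70 ± 0.31 (adjusted p = 0.421). With edgeR 0 of 9 members passed (1.06% of all genes), 8 were lower at an unadjusted p under 0.05 (6.72%), and 7 had groups that did not overlap (8.28%), Mlana and Mitf being the exceptions. DESeq2 called 7 members lower (3.54% of all genes), limma-voom 0 (0.0123%) and limma-voom with quality weights 0 (0%). Without DSCG replicate 1 edgeR called Oca2. The members' median was -2.55, and it was -1.64 without DSCG replicate 3, the library with the highest level of each member in that group.

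Against blank, the post-MCS-01 differences had the same sign and smaller size. Oca2 differed by -3.97 ± 1.19 (adjusted p = 0.257), Tyrp1 by -2.28 ± 0.92 (adjusted p = 0.453), Tyr by -2.04 ± 0.76 (adjusted p = 0.400) and Mitf by -0.69 ± 0.31 (adjusted p = 0.522). No member passed with edgeR, nor did any other gene (0%), while 7 of 9 members were lower at an unadjusted p under 0.05 (5.44% of all genes). All 9 had groups that did not overlap (9.45%), some by a small margin. The nearest values, post-MCS-01 against blank, were 1.08 against 1.10 CPM for Mc1r, 7.91 against 8.17 for Mlana and 14.9 against 15.7 for Mitf. That blank value of Mitf is 60 counts in the shallow replicate 3. DESeq2 called Oca2 alone (2.34% of all genes), and limma-voom called 0 (0%), as it did with quality weights (5.08%). Blank replicate 1 had the highest level of all 9 members in its group: without it the log2 difference was -1.84 for Oca2, -1.33 for Tyrp1, -0.995 for Slc45a2 and -1.10 for Tyr.

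**Figure D2:**
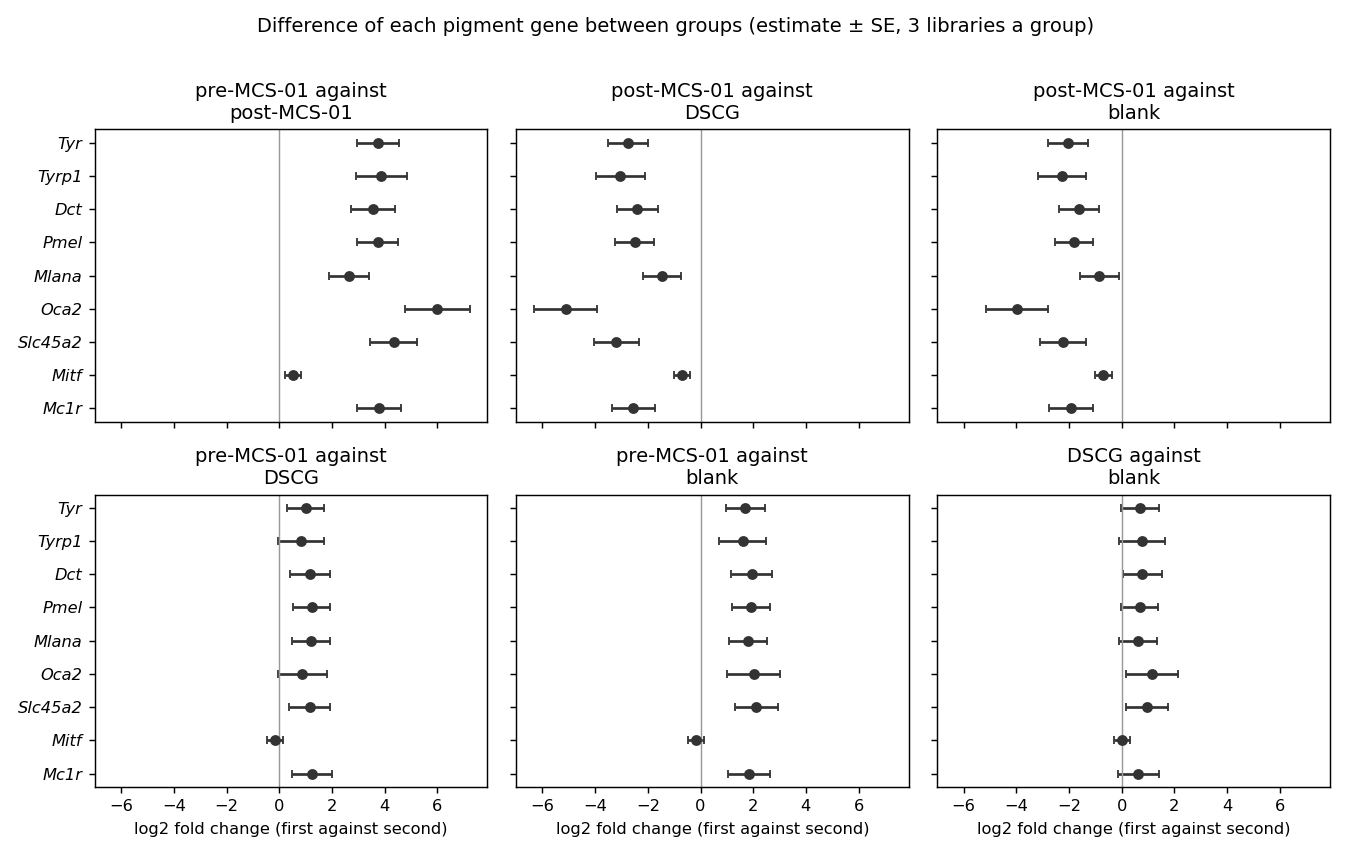
Log2 fold change of each of the 9 genes in the 6 comparisons of groups, as edgeR estimate ± SE (3 libraries a group). The SE was derived from the F statistic of the test. The 3 panels with post-MCS-01 share its libraries. Mitf runs from -0.70 to 0.53 over the panels, and Oca2 lies farthest from 0 in the post-MCS-01 panels, at 5.99, -5.12 and -3.97.

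Among the 3 groups other than post-MCS-01, differences were smaller, and their medians moved when 1 library was left out. In pre-MCS-01 against blank, Slc45a2 had 7.81 ± 5.26 CPM against 1.66 ± 1.52, a log2 difference of 2.11 ± 0.81 (adjusted p = 0.669), and Mc1r differed by 1.86 ± 0.80 (adjusted p = 0.674). These 2 were the members whose groups did not overlap (8.41% of all genes were higher in the same way). The nearest values of the groups were 3.43 against 3.41 CPM for Slc45a2 and 4.40 against 3.92 for Mc1r. At an unadjusted p under 0.05, 6 of 9 members were higher (3.31%). EdgeR called 0 of 9 (0%), DESeq2 0 (0.373%), limma-voom 0 (0%), and limma-voom with quality weights called Mitf, as lower (15.3%). The members' median was 1.86, and leaving out pre-MCS-01 replicate 2 made it 0.94. Leaving out all 3 libraries low in long transcripts made it 0.78.

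In pre-MCS-01 against DSCG the members' median log2 difference was 1.15, and it was 0.22 without pre-MCS-01 replicate 2. Without the 3 libraries low in long transcripts the direction turned: the median was -0.13, with 2 of 9 members above 0. No member passed the adjusted threshold in edgeR (0% of all genes), an unadjusted p under 0.05 (2.36%), DESeq2 (0.0732%) or either form of limma-voom (0% in each), and no member had groups without overlap (5.12%). In DSCG against blank the median was 0.71, and counts were also 0 by edgeR (0%), at an unadjusted p under 0.05 (1.03%), by DESeq2 (0%), by both forms of limma-voom (0%) and for groups without overlap (3.68%). With standard errors of 0.70 to 0.98 for the members other than Mitf in DSCG against blank, differences of several-fold in either direction were not detectable with 3 libraries a group. Without DSCG replicate 3 that median was -0.23.

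In the joint edgeR test of all 4 groups, 0 members passed, as did 0% of all genes, and 8 of 9 had an unadjusted p under 0.05 (8.42% of all genes). DESeq2 called 8 members in its joint test (3.19% of all genes), limma-voom 0 (0.00615%) and limma-voom with quality weights 6 (13.5%). The smallest adjusted p from edgeR was 0.210, for Slc45a2, and the largest 0.785, for Mitf.

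The members' profiles over the 12 libraries were compared as log2 CPM minus each gene's own mean, with the mean absolute difference between profiles as the measure of likeness. Pmel and Dct were the closest pair, at 0.160, followed by Pmel and Tyr at 0.193 and Pmel and Mc1r at 0.224. Oca2 and Mitf were the farthest apart, at 1.93. On this measure the receptor gene lay nearer to the enzymes and the fibril protein than Mitf did. The measure counts the size of changes as well as their direction. A gene of narrow range such as Mitf can therefore lie far from the others even where it moves with them. The ratio of Tyr to Mitf per length was 0.0710 to 0.137 in post-MCS-01, 0.0950 to 0.420 in blank, 0.246 to 0.624 in DSCG and 0.595 to 1.38 in pre-MCS-01. Pre-MCS-01 did not overlap post-MCS-01 or blank in this ratio, and blank overlapped post-MCS-01 through its replicate 2.

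**Figure D3:**
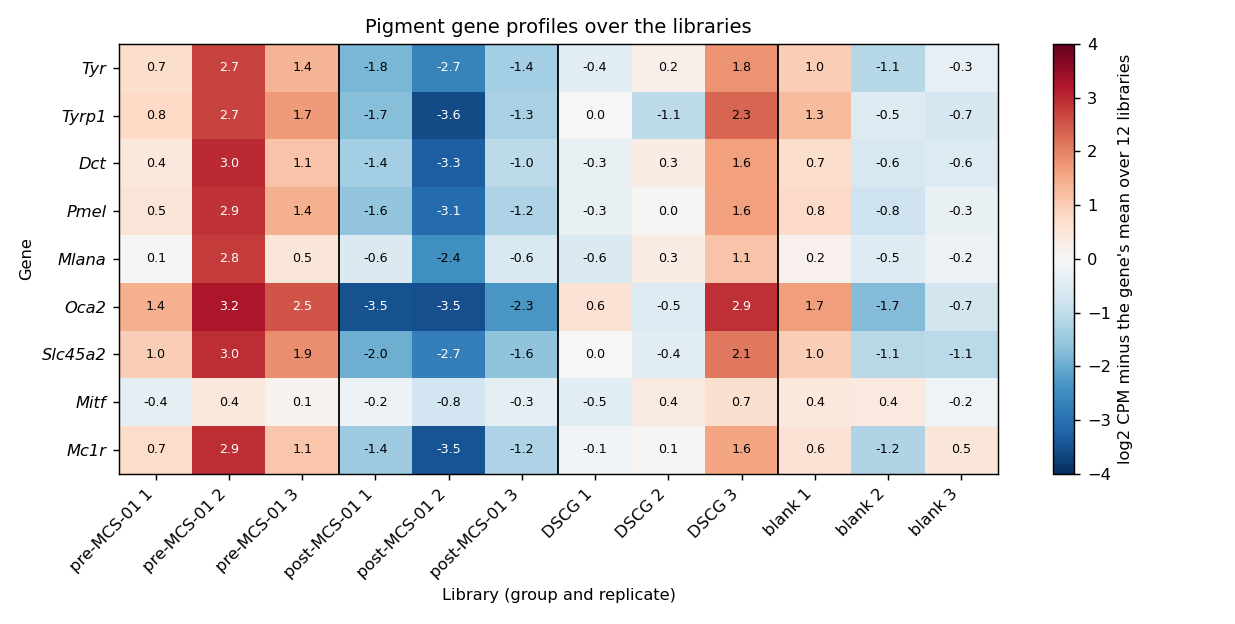
Log2 CPM of each gene minus its mean over the 12 libraries, by library, with groups set apart by vertical lines. Blue columns show libraries below the mean, which include all 3 of post-MCS-01, and the pale Mitf row shows its narrow range (SD 0.449 against 2.42 for Oca2).

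Likeness to genes outside the 9 was measured among 14128 genes with a mean of at least 1 CPM. The 5 genes nearest to the mean profile of the members were Tspan10 (0.247), Syt4 (0.250), Mycn (0.279), Gpr143 (0.294) and Msx1 (0.323). Tspan10 encodes a tetraspanin, Gpr143 the melanosomal receptor of ocular albinism, Syt4 a synaptotagmin, and Mycn and Msx1 transcription factors. By member, the 2 nearest were Tspan10 and Syt4 for Pmel, Syt4 and Tspan10 for Tyr, Syt4 and Slc24a5 for Tyrp1, Ptgds and Tspan10 for Dct and for Mc1r, and Gpr143 and Slc24a5 for Slc45a2. Oca2 was nearest to Trpm1 (0.350) and Slc24a4 (0.515), Mlana to Rbp7 (0.275) and Kcng2 (0.314), and Mitf to Cnn3 (0.0960) and Repin1 (0.109). Cnn3 encodes a calponin, an actin-binding protein. The level of Tspan10 was 6.16 ± 5.27 CPM in pre-MCS-01, 0.300 ± 0.240 in post-MCS-01, 2.80 ± 2.77 in DSCG and 1.55 ± 1.09 in blank (SD, n = 3).

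Other genes of the pigment pathway are given by function. Of 12 other melanosome proteins, edgeR called 0 in any comparison. In pre-MCS-01 against post-MCS-01 their median log2 difference was 1.23, 6 of the 12 were higher at an unadjusted p under 0.05 (6.02% of all genes) and 0 were lower. DESeq2 called 5 (2.45%), limma-voom 0 (0.00615%) and limma-voom with quality weights 7 (23.5%). Gpr143 had 2.78 ± 2.60 CPM in pre-MCS-01 and 0.113 ± 0.0642 in post-MCS-01. In the same groups Trpm1 had 50.0 ± 34.6 against 1.80 ± 1.02 CPM, Slc24a5 9.68 ± 5.07 against 0.532 ± 0.404 and Slc24a4 4.92 ± 2.39 against 0.208 ± 0.0975. Log2 differences of that list ran down to -0.80, and 4 of the 12 lay below 0. These included Slc7a11, Cd63 (379 ± 94.6 against 511 ± 172 CPM) and Gpnmb (250 ± 63.1 against 323 ± 141). Cd63 and Gpnmb are also abundant in macrophages. Slc7a11, the cystine transporter that favours the yellow pigment pheomelanin and also serves glutathione supply in many cells, had its highest mean in post-MCS-01. It had 119 ± 76.8 CPM in post-MCS-01, 67.8 ± 33.3 in pre-MCS-01, 30.2 ± 26.6 in DSCG and 13.0 ± 3.07 in blank. In post-MCS-01 against blank its log2 difference was 3.17 ± 0.69 (adjusted p = 0.0875). These groups did not overlap, a separation seen in the same direction for 1451 of all 16267 genes.

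The 23 genes of melanosome biogenesis and transport, which most cells share for lysosome-related organelles, lay near 0. Their median log2 difference in pre-MCS-01 against post-MCS-01 was -0.01, with a range of -0.53 to 0.48 that included Bloc1s3, Rab32 and Hps4, the 3 with the smallest joint p. Their summed level was 851 to 865 CPM in pre-MCS-01 and 805 to 906 in post-MCS-01. EdgeR called 0 of the 23 in any comparison, and 3 had an unadjusted p under 0.05 in that one (10.2% of all genes), 2 of them higher in pre-MCS-01. DESeq2 and limma-voom also called 0 there (2.45% and 0.00615% of all genes), and limma-voom with quality weights called 5, near the background of 23.5%.

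Of 10 lineage regulators edgeR called 0 in any comparison. In pre-MCS-01 against post-MCS-01, 2 were higher at an unadjusted p under 0.05 (6.02% of all genes). DESeq2 called 1 (2.45%), limma-voom 0 (0.00615%) and limma-voom with quality weights 3, near the background of 23.5%. Of the 10 log2 differences, 8 lay above 0 and 2 below. Sox10, the neural crest factor upstream of Mitf that Schwann cells also express, had 12.5 ± 2.60 CPM in pre-MCS-01 and 9.80 ± 4.01 in post-MCS-01, a log2 difference of 0.35 ± 0.44 (adjusted p = 0.789). Pax3, another regulator of this list, had 1.33 ± 0.340 against 0.584 ± 0.299 CPM in the same groups. Kit, the stem cell factor receptor of melanocytes and of mast cells, had 20.6 ± 5.26 against 8.58 ± 2.09 CPM, a log2 difference of 1.26 ± 0.41 (adjusted p = 0.291). Lef1, a Wnt pathway factor of melanocytes and of the hair matrix, had 34.9 ± 6.79 against 2.69 ± 1.57 CPM, a difference of 3.69 ± 0.80 (adjusted p = 0.0654). Sox9, also a factor of hair follicle cells, had 94.4 ± 8.83 against 60.7 ± 32.8 CPM.

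Of the 9 signals that act on melanocytes edgeR called 0 in any comparison. In pre-MCS-01 against post-MCS-01, 2 were higher and 2 lower at an unadjusted p under 0.05 (10.2% of all genes in either direction). DESeq2 called 2 (2.45%), limma-voom 0 (0.00615%) and limma-voom with quality weights 5 (23.5%). Edn3, an endothelin that drives melanoblast growth, had 2.90 ± 1.35 CPM in pre-MCS-01, 0.540 ± 0.354 in post-MCS-01, 0.844 ± 0.450 in DSCG and 0.612 ± 0.530 in blank; in pre-MCS-01 against post-MCS-01 its log2 difference was 2.42 ± 0.73 (adjusted p = 0.239). Corin, a protease of the hair dermal papilla that limits agouti activity, had 4.33 ± 0.330, 0.360 ± 0.250, 5.70 ± 6.56 and 4.78 ± 2.30 CPM in the same order, and in post-MCS-01 against DSCG it differed by -3.98 ± 0.88 (adjusted p = 0.0644). Kitl, the ligand of Kit, had 14.4 ± 3.63 against 10.2 ± 2.66 CPM in pre-MCS-01 and post-MCS-01 (adjusted p = 0.730), and Hgf 1.44 ± 1.31 against 3.91 ± 1.15. The agouti gene Asip had 5.45 ± 2.84 CPM in post-MCS-01, 1.98 ± 0.867 in pre-MCS-01, 2.43 ± 1.47 in DSCG and 2.89 ± 1.26 in blank. Its post-MCS-01 values (2.23 to 7.57 CPM) overlapped each other group.

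The summed level of hair follicle keratinocyte markers was lowest in the same 3 post-MCS-01 libraries. For 20 such genes (hair keratins, inner root sheath keratins and follicle transcription factors) it was 222 to 291 CPM in post-MCS-01. In the other groups it was 14019 to 35292 in pre-MCS-01, 2374 to 44587 in DSCG and 7597 to 22334 in blank. Taken singly, Foxn1, Gata3 and Shh were exceptions. Their highest post-MCS-01 values (44.7, 161 and 1.93 CPM) lay above their lowest in blank (27.7, 132 and 0.524). EdgeR called 14 of the 20 in pre-MCS-01 against post-MCS-01, each higher in pre-MCS-01 (0.805% of all genes were called so), and 17 of 20 in post-MCS-01 against DSCG, each lower in post-MCS-01 (0.916%). The hair calls depended on the tool: in these comparisons, in the same order, DESeq2 called 18 and 18 (2.45% and 3.54% of all genes). Limma-voom called 1 and 1 (0.00615% and 0.0123%), and limma-voom with quality weights 20 and 0 (23.5% and 0%). In post-MCS-01 against blank edgeR called 0 of the 20 (0% of all genes) and DESeq2 17 (2.34%). There limma-voom called 0 (0%), and limma-voom with quality weights 18 (5.08%). The median over libraries outside post-MCS-01 exceeded that of post-MCS-01 by 61.3-fold for the hair sum and by 3.06-fold for the pigment sum. That pigment sum includes Mitf, which varied little and made up 10.3 of 23.5 CPM in post-MCS-01 replicate 2. Without Mitf the pigment sum was 13.2 to 54.4 CPM in post-MCS-01 and 72.7 to 879 in the other libraries. Within DSCG, replicate 2, one of the libraries low in long transcripts, exceeded replicate 1 by 15.8-fold in the hair sum (37517 against 2374 CPM). In the pigment sum it did so by 1.32-fold (147 against 111). DSCG replicate 3 exceeded replicate 1 by 18.8-fold in the hair sum and by 3.83-fold in the pigment sum. Whether follicle content has a part in the pigment levels was not tested.

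**Figure D4:**
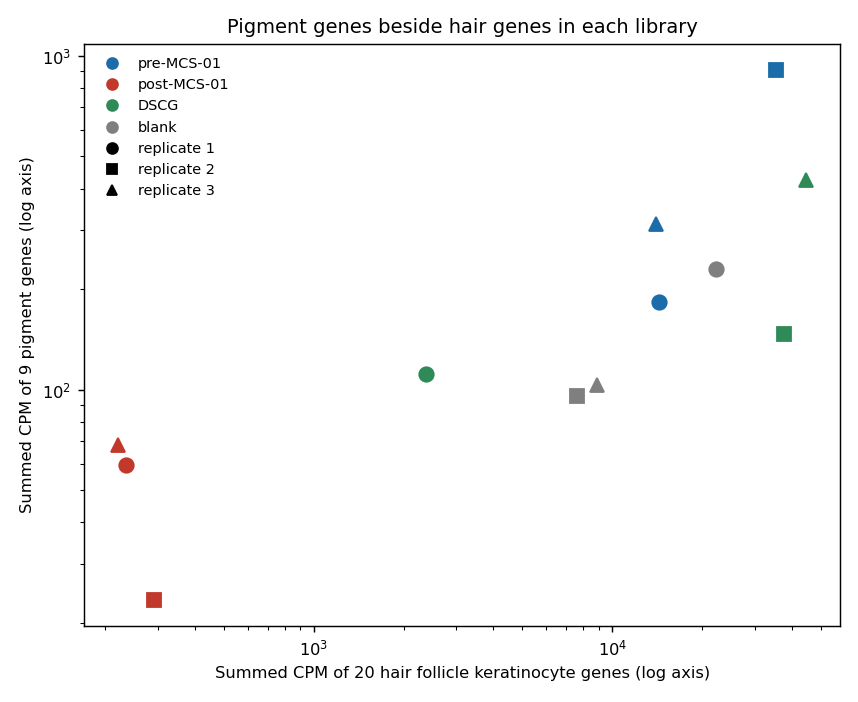
Summed CPM of the 9 pigment genes against summed CPM of the 20 hair follicle keratinocyte genes, 1 point per library, both axes log. The 3 post-MCS-01 libraries lie at the lower left (at most 68.3 and 291 CPM), and DSCG replicate 1 lies apart from the other 2 DSCG libraries in the hair sum.

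Other cells that could lend or dilute pigment RNA gave the following levels. Of 10 mast cell markers edgeR called 0, and their sum was 157 to 303 CPM in pre-MCS-01, 220 to 349 in post-MCS-01, 121 to 273 in DSCG and 185 to 248 in blank, groups that all overlap. The 10 Schwann cell markers, cells that share Sox10 with melanocytes, summed to 205 to 240.4 CPM in pre-MCS-01, 275 to 341 in post-MCS-01, 240.5 to 354 in DSCG and 302 to 381 in blank, so that pre-MCS-01 lay below post-MCS-01 and blank and ended where DSCG began. The 10 macrophage markers summed to 1131 to 1571 CPM in pre-MCS-01, below all of post-MCS-01 (1650 to 3160) and blank (2031 to 2202), and to 1271 to 2514 in DSCG. The 9 keratinocyte markers of the epidermis outside follicles summed to 31480 to 56722 CPM in pre-MCS-01, 23432 to 47875 in post-MCS-01, 18315 to 60804 in DSCG and 23702 to 40202 in blank, groups that overlap. EdgeR called 0 genes of these 4 lists in any comparison. In pre-MCS-01 against post-MCS-01, 1 mast cell, 2 Schwann cell, 6 macrophage and 3 epidermal keratinocyte markers were lower in pre-MCS-01 at an unadjusted p under 0.05 and 0 were higher (10.2% of all genes in either direction). There DESeq2 called 2 macrophage markers and 0 of the other 3 lists (2.45% of all genes), and limma-voom called 0 (0.00615%). With quality weights limma-voom called 10 of 10 macrophage markers, and 3 in each of the other lists, against 23.5% of all genes. Their part in the pigment levels was not tested.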

How the data were processed

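RNA of skin wounds from 12 mice (4 groups of 3, by the treatment label) was sequenced from TruSeq RNA libraries after miRNeasy extraction, per the labels' protocols. The values are whole-number counts by gene symbol as deposited, one table for each library, made by the authors with FastQC, TopHat2, Bowtie2, HTSeq and the mouse build mm10, per the submitters' processing notes, which also name limma. Versions, the strand setting and the annotation are not given in the sources used here. The 5 summary lines were left out of library sizes: reads with several alignments were 17.2% to 23.4%, reads outside genes 4.34% to 6.81% and ambiguous reads 0.956% to 1.35% of all counted.

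In R 4.3.3, filterByExpr kept 16267 genes, TMM scaled the libraries, and the quasi-likelihood test of edgeR 4.0.16 (two-sided, 1 model of 12 libraries) gave 6 comparisons and a joint test, with Benjamini-Hochberg adjustment over all genes tested and a threshold of 0.05. The biological coefficient of variation was 0.347. Tests were checked on simulated data. CPM errors are SD and fold change errors SE. The SE of an edgeR fold change was derived as its absolute log2 value divided by the square root of the F statistic. Levels per kb use exon lengths of GENCODE M21 models on the same build. Profiles used log2 CPM with a prior count of 2. Alternatives used DESeq2 1.42.0, limma 3.58.1, other scalings, no filter, 2 groups only, and libraries left out. All 9 members were named, with the members of each other list past the threshold or, failing that, the 3 with the smallest joint p. Cd63, Gpnmb, Sox10, Pax3, Kitl, Asip and the hair genes Foxn1, Gata3 and Shh were named outside that rule after their values were seen. The levels of Trpm1, Slc24a5 and Slc24a4 were added in the same way. Called hair genes are given as counts. The members and lists were chosen with earlier results of these data known. Each library is 1 mouse. Intervals of counting error are not given, and the limit of 3 counts covers counting error only.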

Additional observations from a re-analysis of the deposited data

How the results depend on the processing

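No paired analysis was possible because every mouse number differs between the groups. Depth limits the low members most: Oca2 had 3 to 10 counts in each post-MCS-01 library and 3 in blank replicate 3, where Slc45a2 also had 3. EdgeR called 0 members in each of the 6 comparisons and in the joint test, and 92 of 103 recounts under other settings gave 0 as well. In pre-MCS-01 against post-MCS-01 the count was 4 without the filter on low counts, 8 with DESeq2, 7 with voom and quality weights, 3 with only those groups in the model, and 0 to 2 when 1 library was left out. In post-MCS-01 against DSCG it was 7 with DESeq2 and 0 to 1 with 1 library left out. In post-MCS-01 against blank it was 1 with DESeq2, and in pre-MCS-01 against blank 1 with quality weights. The joint test gave 8 with DESeq2 and 6 with quality weights. Over all genes the called number ran from 0 to 3818 in pre-MCS-01 against post-MCS-01 (edgeR 134), from 0 to 613 in post-MCS-01 against DSCG (172), from 0 to 827 in post-MCS-01 against blank (0), from 0 to 15 in pre-MCS-01 against DSCG (0), from 0 to 2485 in pre-MCS-01 against blank (0), and from 0 to 2189 in the joint test (0). The cause was not tested. Total-count scaling moved the median of all genes by -0.10 on the log2 scale in pre-MCS-01 against post-MCS-01.

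Of 756 recomputed member fold changes 732 kept their sign, including every one in the comparisons with post-MCS-01, and 11 of the 24 reversals were of Mitf. The members' median without the 3 libraries low in long transcripts was -2.79 in post-MCS-01 against DSCG. It was -1.92 in post-MCS-01 against blank and 0.81 in DSCG against blank. Without the 3 libraries low in long transcripts, pre-MCS-01 against DSCG became -0.13 for Oca2, -0.034 for Tyr, -0.29 for Tyrp1, -0.16 for Dct, -0.25 for Mlana and -0.048 for Mc1r (log2). With 1 library left out, that comparison ran from -0.16 (without pre-MCS-01 replicate 2) to 1.68 for Mlana and from -0.43 to 0.038 for Mitf, and pre-MCS-01 against blank from -0.35 to 0.027 for Mitf. DSCG against blank, lowest each time without DSCG replicate 3, ran from -0.15 to 1.24 for Pmel, from -0.44 to 3.24 for Oca2, from -0.23 to 1.60 for Tyr, from -0.76 to 1.67 for Tyrp1, from -0.28 to 2.16 for Slc45a2, from -0.12 to 1.05 for Mc1r and from -0.24 to 0.27 for Mitf. Mitf, 0.01 in DSCG against blank, was -0.011 with total-count scaling, -0.010 without the filter, -0.12 with voom, -0.27 with quality weights and -0.19 without the 3 libraries.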
